A study of Rattus norvegicus with 6 samples.

Results

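The genes described here encode the inhibitors of cyclin-dependent kinases (CDKs). They were taken by symbol from the deposited count table, where all 7 are listed among 40456 genes: Cdkn1a, Cdkn1b and Cdkn1c of the CIP/KIP family and Cdkn2a, Cdkn2b, Cdkn2c and Cdkn2d of the INK4 family. The table holds poly-A RNA sequencing counts of 6 libraries from H9c2 (2-1), an established line of rat cardiomyoblasts labelled as wild type. Every library came from cells kept for 5 days in 1% serum with 1 µM retinoic acid, a treatment that moves the line towards a muscle-like state, and then transfected by lipofection for 24 h with an antisense gapmer at 25 nM. In 3 libraries, the control group, the gapmer was a negative control oligonucleotide. In the other 3 it was directed against the long non-coding RNA Tug1. Since there was 1 gapmer for each group, the loss of Tug1 and other effects of that oligonucleotide cannot be told apart. The labels do not say whether the replicates were separate cultures, so p-values measure the spread between these libraries, which may be technical.

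The pair of gapmers defines the comparison, and both sequences, as given in the labels' protocols, are shown 5′ to 3′ for that reason.
Tug1 gapmer: attcagtagacagcta
negative control gapmer: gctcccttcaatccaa

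A cell passes from G1 into S phase when cyclin D bound to CDK4 or CDK6, and then cyclin E bound to CDK2, phosphorylate the retinoblastoma protein and its relatives, which frees E2F factors to switch on S phase genes. INK4 proteins bind CDK4 and CDK6 alone and keep cyclin D from activating them. CIP/KIP proteins bind whole cyclin-CDK complexes, above all those with CDK2. In muscle cells, inhibitors of both families accompany the exit from the cell cycle that precedes differentiation.

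The members were proposed with the results of this comparison known, and Cdkn2b was picked out for its lower level after the Tug1 gapmer. Their values in the comparison are therefore descriptions and carry no p-value. Levels are in CPM, counts divided by library size and multiplied up to a common total, with edgeR's TMM factor for composition. Transcript lengths were not used here, so levels are compared between libraries and not between genes. A negative log2 fold change means a lower level after the Tug1 gapmer.

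Libraries held 12978548 to 13544337 counts, and the 3 counts taken as the detection limit correspond to 0.217 to 0.232 CPM, a limit that covers counting error only. Tug1 was at 52.0 to 55.4 CPM in controls and 11.2 to 12.5 CPM after its gapmer (log2 fold change -2.19, SE 0.0786). Of 14216 genes that passed a filter on low counts, 61.7% were called by edgeR's quasi-likelihood test (adjusted p under 0.05), 30.8% as higher and 30.9% as lower after the Tug1 gapmer. Of the muscle markers, 7 of 11 were tested, with Tnnt2 at 349 ± 18.0 CPM in controls (SD, n = 3). Myh6, Myh7 and Nkx2-5, which mark heart muscle cells, were at or under 3 counts in every library. Of the 7 tested, 5 were called as higher and 0 as lower (71.4%, against 61.7% of all tested genes). In group means Myog rose from 275 to 486 CPM, Ttn from 168 to 263, Tnnt2 from 349 to 410 and Actc1 from 9.22 to 18.1. Gata4, at 12.7 ± 1.75 CPM in controls (SD, n = 3), did not pass the test (-0.26). The summed muscle markers were at 812 to 862 CPM in controls and 1180 to 1250 CPM after the Tug1 gapmer, and the 5 fibroblast markers at 36900 to 38600 and 32000 to 34700 CPM. Most counts of the latter sum are from Col1a1 (-0.23 on the log2 scale) and Col1a2 (-0.08, not called). Also on that list, Dcn rose from 403 ± 7.92 to 596 ± 33.5 CPM (SD, n = 3; 0.57). Thy1 fell from 363 ± 7.66 to 275 ± 9.98 CPM (SD, n = 3; -0.40). Of the 4 tested fibroblast markers, 2 were called as lower and 1 as higher (75%, against 61.7% of all tested genes). The 4 smooth muscle markers, all tested, summed to 890 to 990 CPM in controls and 1030 to 1190 CPM after the Tug1 gapmer. Acta2 rose from 638 ± 33.1 to 805 ± 67.6 CPM (SD, n = 3; 0.33), and Myh11 from 3.26 ± 0.657 to 6.89 ± 0.727 CPM (1.07). Tagln (0.06) and Cnn1 (-0.02) did not pass the test. Of 4 endothelial markers, 3 were at or under the limit in all libraries, as were 2 of 4 immune markers, Ptprc among them. The immune markers summed to 10.6 to 12.1 CPM in controls and 15.4 to 17.2 CPM after the Tug1 gapmer, and Cd68 rose from 3.60 ± 0.992 to 7.65 ± 1.16 CPM (SD, n = 3). Csf1r, the other tested immune marker, was at 7.65 ± 0.545 and 8.83 ± 0.217 CPM (SD, n = 3) and did not pass the test. Of the 2 tested immune markers, 1 was thus called (50%, against 61.7% of all tested genes). These marker levels moved with the groups, and their part in the results below was not tested. In bulk RNA a change in the share of cells that express a gene and a change in RNA per cell cannot be told apart.

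Of the 7 inhibitor genes, 6 were detected and passed the filter. Among these 6, 3 passed the test, Cdkn2b and Cdkn2a as lower and Cdkn1a as higher, against 61.7% of all tested genes, and nothing is read from that share because the members were chosen on this comparison. In 4 of them the 3 control libraries and the 3 Tug1 gapmer libraries did not overlap, which was also so for 65.6% of all tested genes. One member stood far from the rest. The log2 fold change of Cdkn2b was -1.65 (SE 0.0468), while those of the other 5 lay between -0.20 and 0.11. The median of the 6 was -0.12, and that of all tested genes was 0.00.

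**Figure D1:**
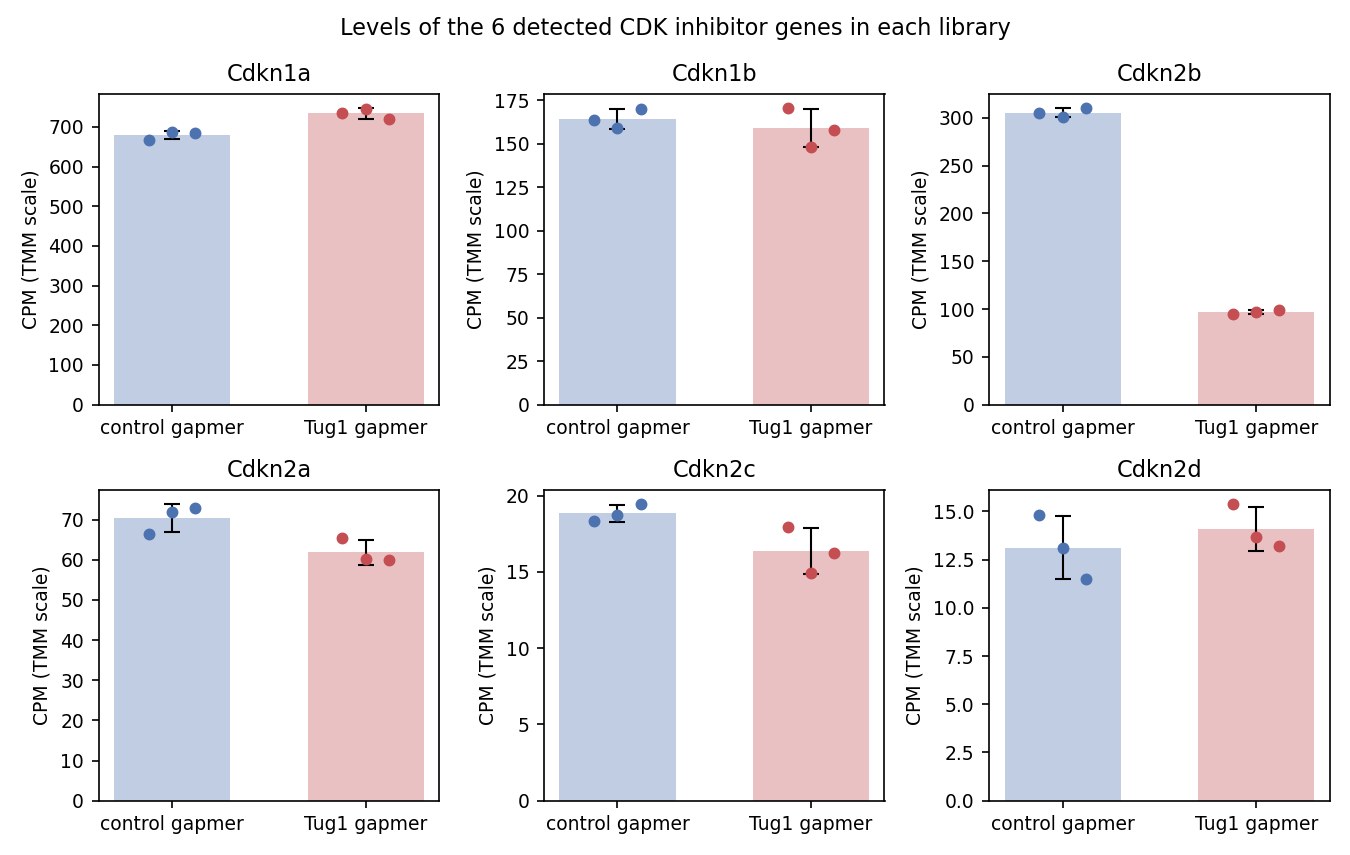
Levels of the 6 detected CDK inhibitor genes in CPM (vertical axis, TMM scale, starting at 0) for the control gapmer and Tug1 gapmer groups; points are libraries, bars are group means and error bars are SD (n = 3). Cdkn2b sits between 301 and 309.9 CPM in controls and between 95.2 and 98.6 CPM after the Tug1 gapmer, while the other genes differ far less.

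Cdkn2b encodes p15INK4b, an inhibitor of CDK4 and CDK6 known as a mediator of growth arrest by TGF-beta. Control libraries 1 to 3 held 3978, 3887 and 4018 of its counts, and Tug1 gapmer libraries 1 to 3 held 1314, 1311 and 1306. In CPM the control libraries were at 305, 301 and 309.9, and the Tug1 gapmer libraries at 95.2, 97.0 and 98.6. The groups were thus far apart and each was narrow, with a coefficient of variation of 1.47% in controls and 1.75% after the Tug1 gapmer. Group means were 305 ± 4.50 CPM and 97.0 ± 1.69 CPM (SD, n = 3), so 31.8% of the control level was left, a level 3.15 times lower. The counting error alone of the smallest of these counts, in a Tug1 gapmer library, is 2.77%, which is above the 1.75% of that group. So narrow a spread over 3 libraries is therefore not read as a measure of precision. Of the 14216 tested genes, 203 (1.43%) had a lower log2 fold change than Cdkn2b, and a called fall of 1 or more on the log2 scale was found for 5.21%. The gene was chosen for this difference, so its place among all genes is a description. Over the 15 alternatives to the processing that give it a value, its log2 fold change ran from -1.67 to -1.58.

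Cdkn2a lies beside Cdkn2b and encodes 2 proteins from alternative first exons, the CDK4 and CDK6 inhibitor p16INK4a and ARF, an inhibitor of MDM2; counts per gene do not separate them. Controls 1 to 3 were at 66.5, 71.8 and 72.9 CPM, and Tug1 gapmer libraries 1 to 3 at 65.4, 60.2 and 60.0 CPM. All 3 Tug1 gapmer libraries were below all controls, but the highest of them was close to the lowest control. The log2 fold change was -0.19 (SE 0.0597), and 87.9% of the control level was left. The call as lower was lost with library totals in place of TMM (-0.13) and with an offset for gene length (-0.13). Cdkn2a and Cdkn2b are close relatives, and how the authors' counting divided reads that match both is not given in the sources used here.

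Within each library, the ratio of the neighbouring genes changed as Cdkn2b did. Counts of Cdkn2b per count of Cdkn2a were 4.59, 4.19 and 4.25 in the controls, and 1.46, 1.61 and 1.65 in the Tug1 gapmer libraries. This ratio needs no scaling between libraries, and its groups did not overlap. It shows unequal change of the pair, not that Cdkn2a was the same in both groups.

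Cdkn2c encodes p18INK4c, and was at 18.3, 18.7 and 19.4 CPM in controls and 18.0, 14.9 and 16.2 CPM after the Tug1 gapmer. Each Tug1 gapmer library was below each control, the first of them only just. The log2 fold change of -0.20 (SE 0.0947) did not pass the test, except in the fit without Tug1 gapmer replicate 1 (-0.27), and shrank to -0.08 with the length offset. Cdkn2d encodes p19INK4d. It was at 14.8, 13.1 and 11.5 CPM in controls and 15.4, 13.7 and 13.2 CPM after the Tug1 gapmer, groups that overlapped. Its log2 fold change was 0.10 (SE 0.112), not called, and became 0.29 and called as higher with the length offset. These 2 genes had 149 to 252 counts per library, where counting error alone reaches 8.19%.

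Summed over the INK4 family, the level was 408 ± 5.25 CPM in controls and 189 ± 4.21 CPM after the Tug1 gapmer (SD, n = 3). Cdkn2b made up 208 of the 218 CPM between these means, or 95.4%. Its share of the family's counts was 74.4% to 75.4% in controls and 49.1% to 52.5% after the Tug1 gapmer. Such shares follow counts and depend on transcript length, so they compare libraries only.

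**Figure D2:**
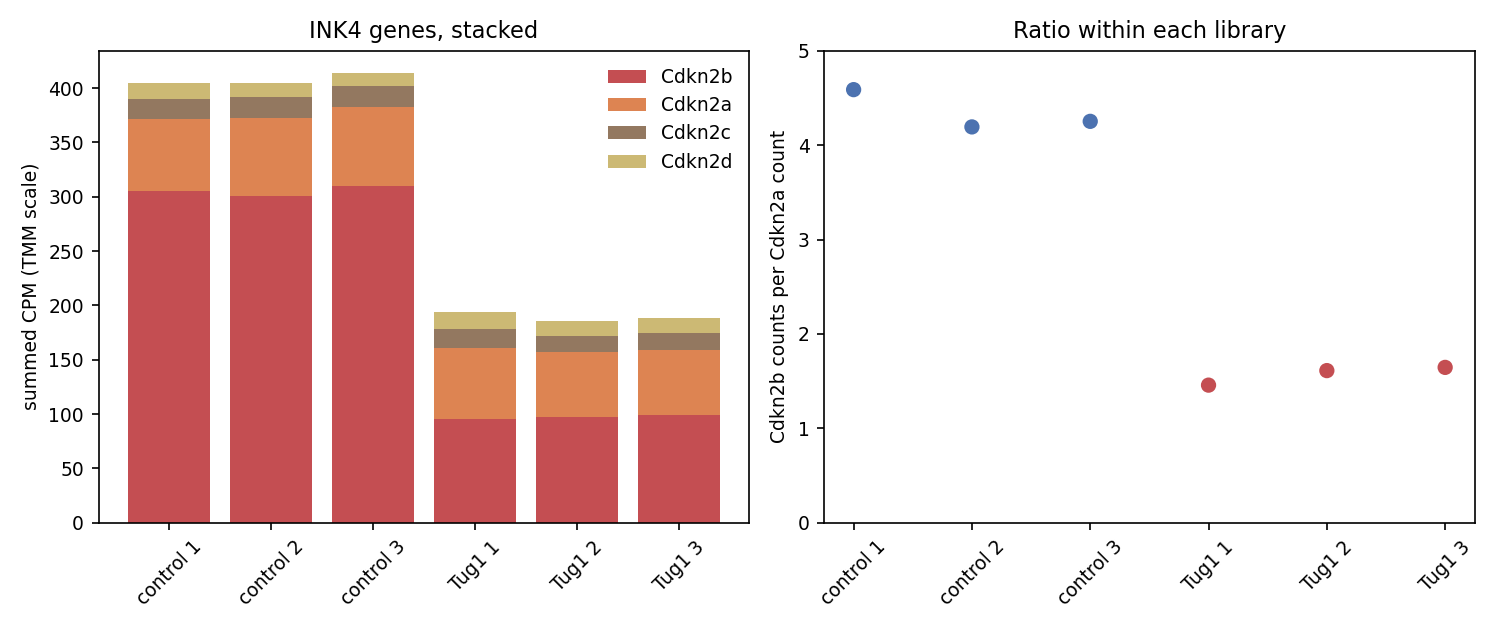
Left, CPM (TMM scale) of the 4 INK4 genes stacked for each of the 6 libraries; right, counts of Cdkn2b per count of Cdkn2a in each library (blue control gapmer, red Tug1 gapmer). The stack is 405 to 414 CPM high in controls and 186 to 194 CPM after the Tug1 gapmer, and nearly all of the difference is the Cdkn2b segment.

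The upstream sequences of the 2 neighbours are shown because their transcripts changed so unequally. Each is the 250 bases before the gene start in RefSeq's promoter table for the rat assembly GRCr8, which gives 1 start per gene, 5′ to 3′ on the gene's own strand. The authors' genome build is not given in the sources used here. Cdkn2b is at chr5:109134856-109135105 and Cdkn2a at chr5:109107957-109108206, both on the minus strand; the Cdkn2a start lies inside the annotated gene, so that the start of its longer transcript is not shown. Capitals mark the GC box GGGCGG and the cAMP response element TGACGTCA, both searched on both strands. Of all the sequences searched, only these had a match in either window.
Cdkn2b: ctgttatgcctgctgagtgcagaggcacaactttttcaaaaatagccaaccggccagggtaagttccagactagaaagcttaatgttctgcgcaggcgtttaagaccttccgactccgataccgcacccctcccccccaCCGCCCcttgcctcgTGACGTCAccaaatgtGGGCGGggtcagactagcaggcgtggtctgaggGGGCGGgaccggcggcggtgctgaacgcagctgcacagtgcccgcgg
Cdkn2a: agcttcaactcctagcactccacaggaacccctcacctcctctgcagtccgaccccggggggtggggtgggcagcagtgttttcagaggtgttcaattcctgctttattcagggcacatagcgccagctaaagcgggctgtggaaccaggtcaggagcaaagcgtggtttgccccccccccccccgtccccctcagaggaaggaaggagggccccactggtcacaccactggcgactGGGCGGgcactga

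The Cdkn2b window holds 3 GC boxes, a number reached by 7.99% of 27457 such windows, and 1 cAMP response element, found in 1.68% of them. The Cdkn2a window holds 1 GC box and no TGACGTCA; 32.1% of windows hold 1 GC box or more. Neither window holds CACGTG, the E-box that MYC binds (5.73% of windows), nor GTCTAGAC, the palindrome bound by SMAD3 and SMAD4 (0.182%). TATAAA (13.2% of windows), CCAAT (34.2%), TGAGTCA (4.06%) and TGTTTAC (3.29%) were also searched and were in neither window. Most windows lack each of these sequences and other forms of the sites were not searched, so nothing is read from their absence. Of the other members with a window, Cdkn2d holds 5 GC boxes, Cdkn1b and Cdkn2c 1 each, and Cdkn1a 0, and TGACGTCA was in none of these 4. A match describes letters in the window and not a bound site.

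The RefSeq gene table of GRCr8 was used for the order of genes around the pair. Of the 5 entries on each side and 1 between them, 4 are in the count table and 3 were tested. Mtap, the gene of methylthioadenosine phosphorylase on the Cdkn2a side, was at 66.9 ± 4.26 CPM in controls and 65.8 ± 1.80 CPM after the Tug1 gapmer (SD, n = 3), or -0.02 on the log2 scale (SE 0.0597; edgeR adjusted p 0.741). On the Cdkn2b side, LOC102552523 had 3 to 14 counts in controls and 10 to 16 after the Tug1 gapmer. LOC120102910, farther out, had 20 to 27 and 22 to 29 counts. Both are long non-coding RNAs by annotation, and neither passed the test. Among the tested genes of this neighbourhood, a fall of over 1 on the log2 scale was found for Cdkn2b alone, while Cdkn2a was called as lower at -0.19. Cdkn2b was chosen for its fall, and a called fall of 1 or more was found for 5.21% of all tested genes. Nothing about the locus is therefore read from its standing alone.

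Cdkn1a encodes p21, the CIP/KIP inhibitor that rises after DNA damage and when muscle cells differentiate. Its controls were at 668, 687 and 685 CPM, and its Tug1 gapmer libraries at 736, 746 and 720.2 CPM. Every Tug1 gapmer library was above every control, by a small margin. The log2 fold change was 0.11 (SE 0.0405), and 0.19 with the length offset. With 8705 or more counts per library, counting error is at most 1.07%. Its call as higher was lost without control replicate 1 (0.10), without Tug1 gapmer replicate 2 (0.10), with no filter on low counts and at an adjusted p of 0.01. Within a library, counts of Cdkn1a per count of Cdkn2b were 2.19 to 2.28 in controls and 7.30 to 7.73 after the Tug1 gapmer.

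Cdkn1b encodes p27, whose amount in cells is known to be set largely by protein breakdown. It was at 164, 159 and 170.1 CPM in controls and 170.5, 148 and 158 CPM after the Tug1 gapmer, and the groups overlapped. The log2 fold change of -0.05 (SE 0.0535) did not pass the test, and it changed sign with library totals (0.01) and with the length offset (0.09). Cdkn1c encodes p57, an imprinted gene in mammals. It had 0 counts in all 6 libraries, which allows up to 0.217 to 0.232 CPM, and no comparison was possible. Of the CIP/KIP family, neither Cdkn1a nor Cdkn1b thus came near the difference seen for Cdkn2b.

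**Figure D3:**
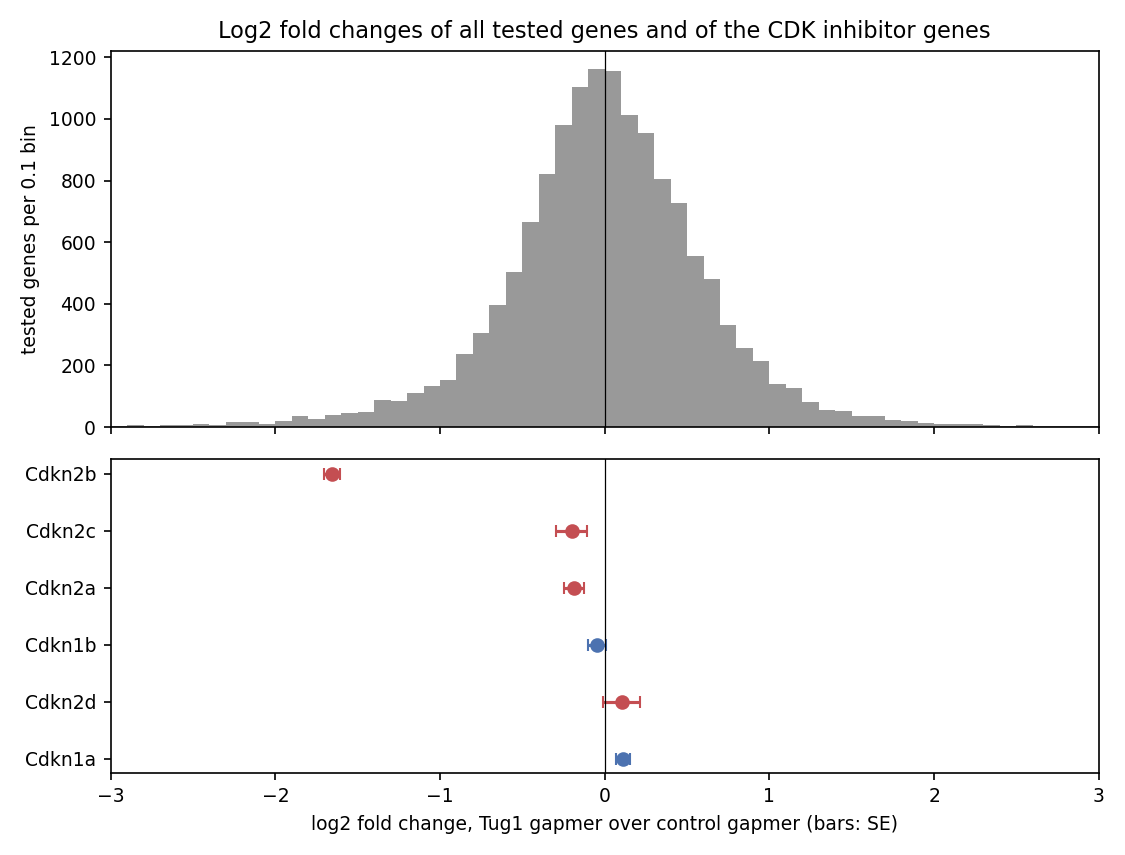
Top, number of tested genes per bin of log2 fold change (Tug1 gapmer over control gapmer; 33 genes beyond 3 in either direction are not drawn); bottom, the 6 tested CDK inhibitor genes on the same axis with their SE (red INK4, blue CIP/KIP). Cdkn2b at -1.65 lies in the lower tail, and the other 5, from -0.20 to 0.11, lie in the middle of the distribution.

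The kinases and cyclins that these inhibitors bind were compared next, as a list written from general knowledge. Of 16 names, 15 were tested and 10 changed, 6 higher and 4 lower, a share of 66.7% against 61.7% of all tested genes. Cyclins of G1 changed in both directions. Ccnd1, a cyclin D gene, was at 945, 1012 and 1040 CPM in controls and 589, 548 and 564 CPM after the Tug1 gapmer, without overlap (-0.82 on the log2 scale, SE 0.0453, edgeR adjusted p 6.41e-13). Ccnd2 fell by 0.31 on the log2 scale, and the cyclin E genes Ccne1 and Ccne2 by 0.40 and 0.71. Ccnd3 rose by 0.19, a call lost with the length offset (0.01).

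CDK4 and CDK6 are the kinases that INK4 proteins bind. Cdk4 was at 287 ± 5.60 CPM in controls and 269 ± 17.5 CPM after the Tug1 gapmer (SD, n = 3), and its log2 fold change of -0.10 (edgeR adjusted p 0.0946) did not pass the test. Without Tug1 gapmer replicate 2 it passed (-0.14), as it did with the replicate number as a block (-0.10), and with the length offset its sign turned (0.07). Cdk6 was at 40.8 ± 2.10 and 40.6 ± 1.98 CPM (SD, n = 3), or -0.01 on the log2 scale, but with the length offset it was called as lower (-0.32). Cdk2, at -0.13, did not pass. The mitotic kinase gene Cdk1 rose by 0.42, its partner gene Ccnb2 by 0.60, and Ccna2 (0.30) did not pass, although it was called as higher with the length offset (0.42). Mnat1, which encodes a partner of the CDK-activating kinase CDK7, rose by 0.56, and by 0.29 with the length offset.

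Of 17 genes of the retinoblastoma family, E2F factors and their complexes, all were tested and 10 changed, 7 higher and 3 lower (58.8%, against 61.7% of all tested genes). Rb1, the retinoblastoma gene, was at 41.0, 43.0 and 42.9 CPM in controls and 56.2, 61.5 and 57.2 CPM after the Tug1 gapmer, a rise of 0.46 on the log2 scale (SE 0.0625, edgeR adjusted p 1.02e-06) that was smaller, but still called, with the length offset (0.22). Its relative Rbl1, which encodes p107, fell by 0.39, and Rbl2, which encodes p130, was at -0.02 and did not pass. E2f5, whose product acts as a repressor with p130, went from 20.4 ± 1.35 to 9.69 ± 0.334 CPM (SD, n = 3), or by -1.07 on the log2 scale (SE 0.101, edgeR adjusted p 4.28e-09). The activator gene E2f3 rose by 0.57, the late repressor gene E2f8 by 0.98, and Tfdp2, whose product is a partner of E2F proteins, by 1.00. E2f1 (0.13) did not pass, and the DREAM subunit gene Lin52 rose by 0.47 (0.29 with the length offset).

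**Figure D4:**
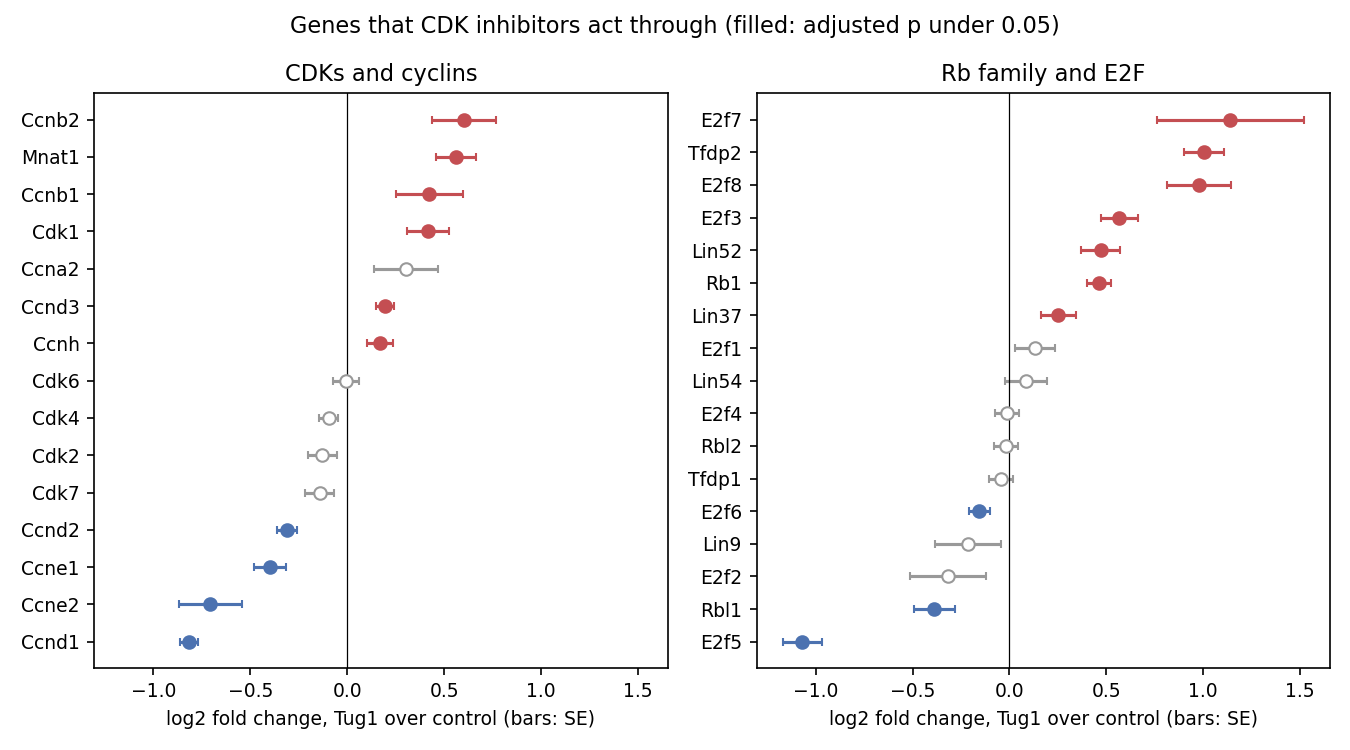
Log2 fold changes (Tug1 gapmer over control gapmer, horizontal axis) with SE for the 15 tested kinase and cyclin genes and the 17 tested retinoblastoma and E2F genes; filled points passed an adjusted p of 0.05 (red higher, blue lower) and open points did not. Cyclin D1 and cyclin E genes are at the low end of the left panel, with Cdk4 and Cdk6 open near 0, and E2f5 is the lowest of the right panel.

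Genes expressed in S phase and mitosis, 22 names that were all tested, changed in 14 cases, 9 higher and 5 lower (63.6%, against 61.7% of all tested genes), with a median log2 fold change of 0.19. The highest were the replication licensing gene Cdc6 (1.84), Mybl2 (1.41) and Top2a (1.32), and the lowest were the licensing gene Cdt1 (-0.97), Tyms (-0.79) and Mcm2 (-0.45). Cdc6 rested on 7 to 16 counts per library in controls and 29 to 53 after the Tug1 gapmer. Genes of DNA replication were thus found on both sides.

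Transcription of the INK4 genes is known to be held down by MYC, raised by TGF-beta through SMAD proteins and FOXO factors, and affected by ETS and ID proteins. A list of 22 genes described as regulators of Cdkn2b, Cdkn2a or Cdkn1a transcription was compared, and all were tested. Of these, 15 changed, 6 higher and 9 lower (68.2%, against 61.7% of all tested genes). Id1, which encodes an inhibitor of helix-loop-helix factors and is a target of BMP signalling, had the lowest value, at 120.2 to 129 CPM in controls and 45.9 to 58.1 CPM after the Tug1 gapmer (log2 fold change -1.26, SE 0.0673, edgeR adjusted p 3.40e-13). Smad7, the inhibitory SMAD that TGF-beta induces, was at -1.05 (SE 0.11), and Klf4 at -0.96 (SE 0.0711). The highest were Smad2 (1.22, SE 0.0844), Foxo1 (1.04, SE 0.118) and Ets1 (0.53, SE 0.0656; 0.30 with the length offset).

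A few further regulators of Cdkn2b are given for their known role, chosen after their values were seen. Myc fell from 49.4 to 56.9 CPM in controls to 26.2 to 30.0 CPM after the Tug1 gapmer (log2 fold change -0.87, SE 0.0749, edgeR adjusted p 8.58e-10). Zbtb17, which encodes the factor MIZ-1 through which MYC acts on Cdkn2b, was at -0.05 (SE 0.0786) and did not pass. Smad3 rose by 0.48 (0.28 with the length offset), the ligand gene Tgfb1 fell by 0.54, and Smad4 (-0.11) did not pass, although it was called as lower with the length offset (-0.14). Among the genes named so far that are known to raise INK4 transcription, Tgfb1 was thus lower, while Smad2, Smad3 and Foxo1 were higher. The other TGF-beta ligand genes, Tgfb2 (0.10) and Tgfb3 (0.06), did not pass. Of the receptor genes, Tgfbr2 was lower (-0.35) and Tgfbr1 (0.02) did not pass. Foxo3 was higher (0.23), and Foxo4 (-0.13) did not pass. The repressor gene Myc was lower. Whether any of these changes bears on Cdkn2b was not tested.

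Polycomb repressive complex 1, whose subunit BMI1 is known for silencing the Cdkn2a-Cdkn2b locus, was represented by 16 tested genes. Of these, 12 changed (75.0%, against 61.7% of all tested genes), 3 higher and 9 lower, and the median log2 fold change was -0.25. Cbx2 fell from 25.3 ± 1.93 to 11.6 ± 0.257 CPM (SD, n = 3), or by -1.12 on the log2 scale (SE 0.0941, edgeR adjusted p 5.76e-10). Bmi1 was at 89.9 to 99.9 CPM in controls and 59.2 to 63.5 CPM after the Tug1 gapmer (-0.59, SE 0.0586), and Rnf2, the catalytic subunit gene, at -0.46 (SE 0.0523). The members called higher were Phc3 (0.24), Phc2 (0.17) and Cbx6 (0.11). The call of Phc2 was lost without control replicate 1 (0.15), and that of Cbx6 without control replicate 1 (0.10), control replicate 3 (0.10) or Tug1 gapmer replicate 3 (0.08), and with no filter beyond 1 count (0.10). With the length offset 9 of the 16 were called, 1 higher and 8 lower, beside 8128 of all 13084 genes tested in that fit. Phc3 (0.10) and Phc2 (-0.02) lost their calls there. Cbx7, named after its value was seen because its protein is known to act on this locus, was at -0.14 and did not pass.

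**Figure D5:**
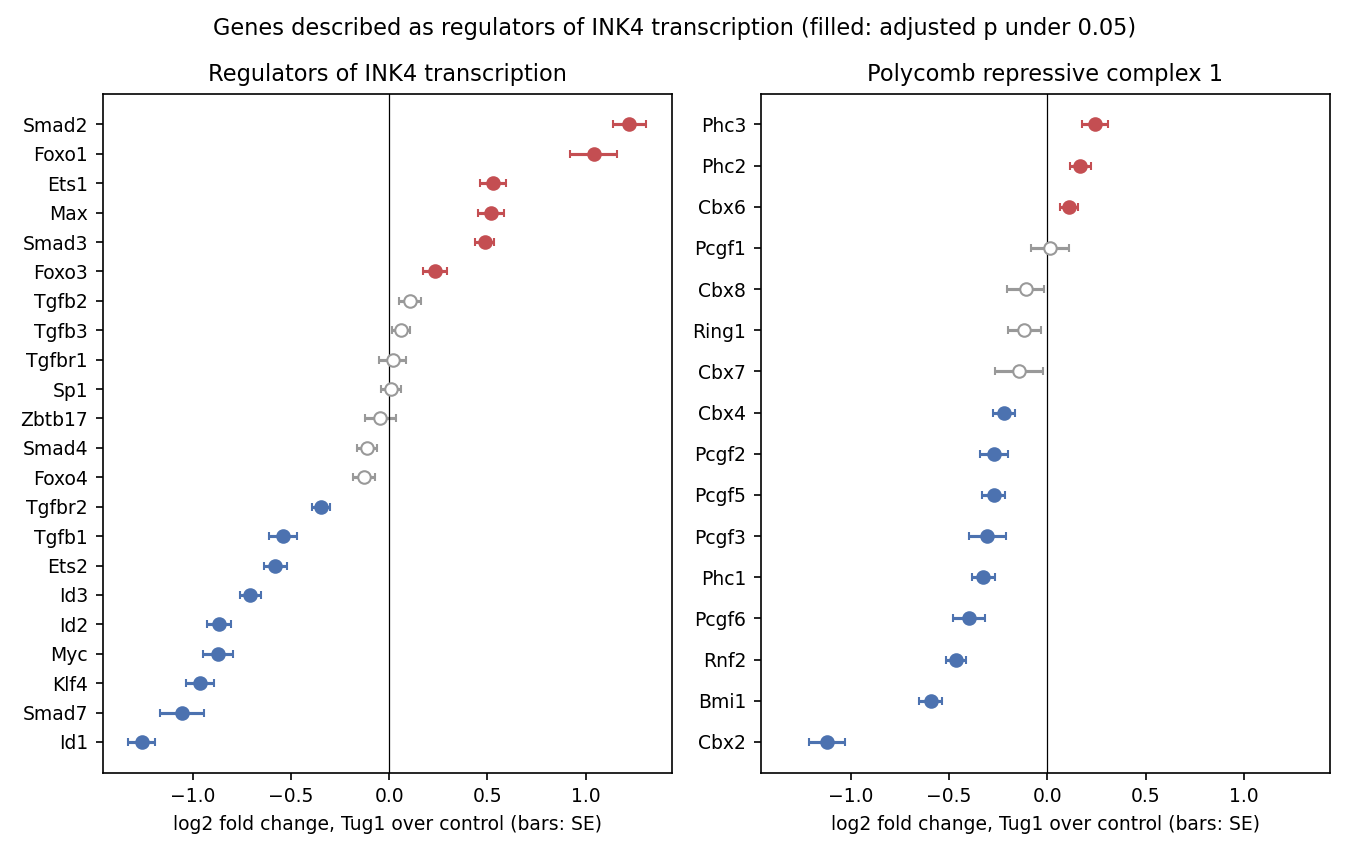
Log2 fold changes (Tug1 gapmer over control gapmer, horizontal axis) with SE for the 22 listed regulators of INK4 or Cdkn1a transcription and the 16 genes of Polycomb repressive complex 1. Filled points passed an adjusted p of 0.05 (red higher, blue lower) and open points did not. The regulators spread from Id1 at -1.26 to Smad2 at 1.22, and 9 Polycomb genes are filled below 0 against 3 above.

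Inhibitors of both families are followed in senescent cells, so genes commonly read with them were listed. The list assigns no direction to its genes, so its count and median do not measure senescence. Of 19 names, 15 were tested and 13 changed, 2 higher and 11 lower (86.7%, against 61.7% of all tested genes, of which 30.9% were lower), with a median log2 fold change of -0.42. The chemokine gene Cxcl1 was at -1.43 (SE 0.143), and Cxcl2, the lowest of the list, had 13 to 16 counts in controls and 0 to 8 after the Tug1 gapmer. The 2 that rose were Igfbp5 (0.44) and Gdf15 (0.79), the latter at 15 to 36 counts per library. The call of Gdf15 was lost without control replicate 2 (0.71), control replicate 3 (0.71), Tug1 gapmer replicate 1 (0.72) or Tug1 gapmer replicate 2 (0.66), and with DESeq2 (0.79).

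Finally, genes with a profile like that of Cdkn2b were sought among 11764 named genes of at least 1 CPM, by the root mean square difference in log2 CPM over 6 libraries after each gene was centred on its control mean. The nearest were Zbed5 (0.0593), Opn3 (0.0639), Dlc1 (0.0706), Mex3b (0.0728) and Sox11 (0.0752). Their log2 fold changes ran from -1.70 for Sox11 to -1.62 for Dlc1, by construction close to that of Cdkn2b. The libraries of both groups are shared by all genes, so this likeness describes the size of a group difference.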

How the data were processed

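Per the labels, poly-A RNA from H9c2 cells was sequenced as stranded libraries, and per the submitters' processing notes FastQC 0.11.7, fastp 0.14.1 and STAR 2.5 were used. The counting tool, genome build, annotation and strand setting are not given in the sources used here. The values the authors deposited are whole-number counts for each gene symbol, unscaled and with replicates kept apart. The table has 0 columns outside the 6 libraries.

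The analysis used edgeR 4.0.16 under R 4.3.3: its expression filter (minimum count 10, minimum total 15), TMM factors, and the quasi-likelihood test, two-sided, on 3 against 3 libraries without a block, with Benjamini-Hochberg adjustment over 14216 tested genes. A gene was called at an adjusted p under 0.05. Alternatives used limma 3.58.1, DESeq2 1.42.0, other scalings and filters, a replicate block, each library left out, and an offset that took out, library by library, the lowess trend (span 0.3) on genomic span, which 92.0% of tested genes have. The members, lists and alternatives were chosen with earlier results of these data known. Named genes were the members, genes of the kinase, cyclin, retinoblastoma and E2F lists, and of other lists up to 3 called genes at each end. Some genes that this rule names, and 1 list, are not reported here. Which genes of the kinase to E2F lists are named was settled after their values were seen: Ccnb1, Ccnh, Cdk7, E2f4, E2f6, E2f7, Lin37 and Tfdp1, mostly genes whose call or sign changed under an alternative, stand in the counts and plots only, so the named genes look more stable than their lists. Replicate numbers did not pair the libraries. The programs were tested on simulated counts for sign, bias and false calls; a first requirement on the share of changed genes recovered was not met at the smaller fold size and was replaced.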

Additional observations from a re-analysis of the deposited data

How the results depend on the processing

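Over 16 alternatives, called members numbered 2 to 4 of the 6 tested. All alternatives were planned with earlier results known. Left-out libraries gave log2 fold changes of -1.67 to -1.64 for Cdkn2b, -0.23 to -0.16 for Cdkn2a, 0.10 to 0.13 for Cdkn1a, -0.10 to 0.0027 for Cdkn1b (above 0 without Tug1 gapmer replicate 2), -0.27 to -0.14 for Cdkn2c and 0.02 to 0.20 for Cdkn2d. Calls of all genes ran from 7353 to 8987. No filter beyond 1 count took the call from Cdkn1a (0.10). Library totals in place of TMM put all tested genes at a median of 0.06, took the call from Cdkn2a (-0.13, leaving 1 member higher and 1 lower), and turned Cdkn1b (0.0060). The length offset, without and with the replicate block, took the call from Cdkn2a (-0.13 and -0.13) and turned Cdkn1b (0.0866 and 0.0859). It also called Cdkn2d (0.29 and 0.29), so that 2 members were higher and 1 lower. It called 4 genes of the Cdkn-named list in place of 2, beside 8128 and 8152 of all 13084 tested genes.

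Several other named genes changed sign. Apart from Phc2, none of these was called in the fit of the report. With library totals they were Cdk2ap2 (0.0227), Cdk6 (0.0458), Mtap (0.0283), Rbl2 (0.0364) and Zbtb17 (0.0065). With the length offset, without and with the block, they were Cdk2ap2 (0.14 and 0.14), Cdk4 (0.0744 and 0.0735) and Phc2 (-0.0218 and -0.0209). Leaving out single libraries gave -0.0107 to 0.0473 for Cdk2ap1, -0.0876 to 0.0044 for Cdk2ap2, -0.0497 to 0.0260 for Cdk6, -0.0774 to 0.0149 for Mtap, -0.0604 to 0.0174 for Rbl2 and -0.10 to 0.0208 for Zbtb17. For none of them was the cause tested.

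Same-numbered libraries were not paired by their values, since the correlations of their deviations across genes were -0.0053, 0.0298 and 0.0270. With the replicate block 8848 genes and 3 members were called, and Cdkn2b was at -1.65. Depth limits Cdkn2c and Cdkn2d, where counting error approaches the differences seen.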

Other observations

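Genes whose names resemble the members but that are no CDK inhibitors of either family were also listed. Of 5 names, 4 were tested and 2 changed, both lower (50%, against 61.7% of all tested genes). Cdkn2aipnl was at 34.5, 37.2 and 36.5 CPM in controls and 16.5, 16.3 and 11.9 CPM after the Tug1 gapmer (log2 fold change -1.27, SE 0.0973, edgeR adjusted p 1.24e-10). Cdkn2aip, which encodes a protein that binds ARF, was at 57.6 to 61.2 CPM in controls and 31.4 to 38.4 CPM after the Tug1 gapmer (-0.78, SE 0.0711, edgeR adjusted p 2.44e-09). For both genes the groups did not overlap, which was also so for 65.6% of all tested genes. Cdk2ap1 (0.02) and Cdk2ap2 (-0.03) did not pass the test, although both were called as higher with the length offset (0.12 and 0.14), and Cdkn3 had 1 to 11 counts per library and was not tested.

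Genes for the breakdown of p27 and p21 protein, 14 names that were all tested, changed in 7 cases, 3 higher and 4 lower (50%, against 61.7% of all tested genes). Ubac1 (0.87, SE 0.0582) and Rnf123 (0.85, SE 0.0694), the subunits of the ligase KPC that marks p27 in G1, rose together, as did Usp19 (0.14; 0.10 and not called without control replicate 3). Rbx1 (-0.47), Cops5 (-0.42) and Cks1b (-0.30) fell, the last without a call under the length offset (-0.16). Skp2, chosen after its value was seen, was at -0.10 and did not pass. Transcript levels say nothing of the amounts of p27 protein.

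Of 8 myogenic factor genes, 6 were tested, and 3 rose and 1 fell (66.7%, against 61.7% of all tested genes). Myog rose by 0.82, Myf6 by 0.78 and Mef2d by 0.69, while Myod1 was at -0.32 and lost its call with the length offset (-0.13). Under that offset 3 of the list were higher and 2 lower, beside 8128 of all 13084 tested genes called. Myf6 had 10 to 28 counts per library, and its call was lost in 5 of the 6 fits that left out a library (0.62 to 0.89), all but the fit without Tug1 gapmer replicate 3. It was lost as well with DESeq2, limma-voom, no filter and the replicate block (0.77).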
